A study of Sparus aurata with 16 samples.

Results

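The white skeletal muscle of gilthead sea bream (Sparus aurata) juveniles deprived of food for 23 days was compared with that of juveniles given diet HLL over the same time. The samples were chosen by their titles. They were 4 starved and 4 HLL fish, or 8 of the 32 labelled RNA samples of the series, which also covers diets MHL and LLH and the liver. HLL is the diet high in protein and low in both lipid and carbohydrate. MHL has medium protein, high lipid and low carbohydrate, and LLH is low in protein and lipid and high in carbohydrate. Fed fish received 25 g of food per kg of body weight once a day. Total RNA of each fish was labelled with Cy5 or Cy3 and hybridised once, with 1 fish of another group on the same two-colour array. The fish numbered 3 of both groups shared an array, and so did those numbered 4. The remaining starved fish were paired with LLH and the remaining HLL fish with MHL. Starved fish 1 and 3 and HLL fish 2 and 4 carried Cy5. The sources used here do not say which aquarium a fish came from, so the P values measure spread between fish and not between aquaria. That spread is pooled over all 16 muscle samples, with the MHL and LLH fish, and is not that of the 8 compared fish alone.

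White muscle makes up most of the body of a teleost and holds its main reserve of protein. In a fish without food, muscle protein is broken down, and part of the amino acids released leaves the tissue as alanine, from which the liver makes glucose. Alanine aminotransferase (ALT) interconverts alanine and pyruvate in the mitochondria (mALT) or the cytosol (cALT1 and cALT2). Pyruvate kinase (PK) catalyses the last step of glycolysis. Acetyl-CoA carboxylase (ACC) makes malonyl-CoA, which is the building block of fatty acids and a brake on their oxidation.

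The array carried probes for 25225 sequences of the transcriptome that the study assembled from liver and muscle. The files list 8 of them by a gene symbol, namely mALT, cALT1, cALT2, PKL, PKM, ACC1tv1, ACC1tv2 and ACC2. The others carry assembly identifiers only, for 19488 isotigs (assembled transcripts), 5655 single reads, 72 contigs and 2 unnamed probes, and the files do not pair these with gene names. Levels are given as normalised log2 intensity, on which a step of 1 is a 2-fold change, and they compare fish for 1 sequence and not 1 sequence with another. The lowest level of a probe well above its local background lay between 5.63 and 6.13 in the 8 channels. Between 59.1 and 63.5% of the spots were well above background in starved fish and between 58.7 and 62.4% in HLL fish, and no spot was saturated. No fish stood apart. The correlation over all sequences was 0.986 to 0.991 between starved fish, 0.981 to 0.992 between HLL fish and 0.94 to 0.961 between a starved and an HLL fish.

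The labelled tissue could be checked only against the 2 pyruvate kinases. PKL, the isoform typical of mammalian liver, was far lower in muscle than in liver, with 7.17 ± 0.14 in the muscle and 9.98 ± 0.24 in the liver of HLL fish when both tissues were normalised together (SD, n = 4; limma, log2 difference -2.82, adjusted P value 2.04e-14). The sequence listed as PKM, the isoform typical of mammalian muscle, was dim in both tissues, and its difference between them was 0.08 (adjusted P value 0.0892). It therefore did not mark the muscle on this array.

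Starvation went with a broad change in both directions. Of the 25225 sequences, 4463 (17.7%) were higher and 4179 (16.6%) were lower in starved than in HLL fish (limma fit of the single channels, 4 fish in each group, threshold of 0.05 on the P value after Benjamini-Hochberg adjustment). Most changes were modest, with a median log2 change of 0.60 among the higher and -0.62 among the lower sequences. At least 2-fold higher were 1138 sequences (4.51%) and at least 2-fold lower were 1147 (4.55%). At least 4-fold changes were found in 241 higher (0.955%) and 262 lower sequences (1.04%). At 8-fold the numbers were 40 higher (0.159%) and 72 lower (0.285%). At 16-fold they were 10 higher (0.0396%) and 12 lower (0.0476%), and at 32-fold 7 higher (0.0278%) and 3 lower (0.0119%). The median change over all sequences was 0, to which the normalisation centres the data. In whole tissue, fewer cells of a type and less RNA per cell cannot be told apart. A fit of log ratios per array called fewer, 2914 higher and 2782 lower.

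The separation of the fish was nearly as broad as the calls. All 4 starved fish lay above all 4 HLL fish in 3955 sequences (15.7% of those tested) and below them in 3788 (15%). Among the sequences called, this held for 3606 of the 4463 higher ones (80.8%) and 3375 of the 4179 lower ones (80.8%). The direction can also be read on each part of the layout. Of the 1138 sequences at least 2-fold higher, 1134 were positive on both direct arrays, and all 1134 were also positive between fish 1 and 2 of each group. Of the 1147 at least 2-fold lower, 1141 were negative in all of these. These sequences were selected on the same 8 fish, so the shared direction is largely built in and supports nothing further. The log2 ratios of the 2 direct arrays correlated with r = 0.80 over all sequences, and their mean correlated with the difference between fish 1 and 2 of each group with r = 0.87. These are correlations over sequences on the same set of arrays, and sequences are not independent replicates.

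Spots of the same probe on 1 array, which receive the same labelled RNA, show the error between spots, without that of labelling and hybridisation. Over 7423 probes spotted 2 times, of sequences well above background in all 8 fish, the median SD between repeat spots was 0.114. It is that of a single spot, pooled over all 16 muscle samples. For the same probes the median SD was 0.172 between starved and 0.139 between HLL fish, with each fish at the mean of its spots. The SDs between spots and between fish are thus not of the same quantity. Over the 15248 sequences well above background in all 8 fish the median SD was 0.168 in starved and 0.136 in HLL fish, and it was larger with HLL in 39.9% of them. Large spread was the more frequent in HLL fish, where 247 of these sequences had an SD over 1, against 158 in starved fish.

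Of the 8 sequences with a gene symbol, mALT rose and the other 7 did not pass the test, where 34.3% of all sequences did. mALT had a log2 intensity of 13.21, 13.19, 13.27 and 13.16 in starved fish 1 to 4, against 10.67, 10.56, 10.91 and 10.89 in HLL fish 1 to 4. The starved fish lay close together and far above every HLL fish. The change was 2.45 on the log2 scale, or 5.45-fold (standard error 0.10 on the log2 scale, adjusted P value 8.86e-09), and both probes of mALT passed on their own. The direct arrays gave 2.36 for fish 3 and 2.26 for fish 4. With the other diets mALT was also low, at 11.10 ± 0.19 with MHL and 11.28 ± 0.13 with LLH.

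**Figure D1:**
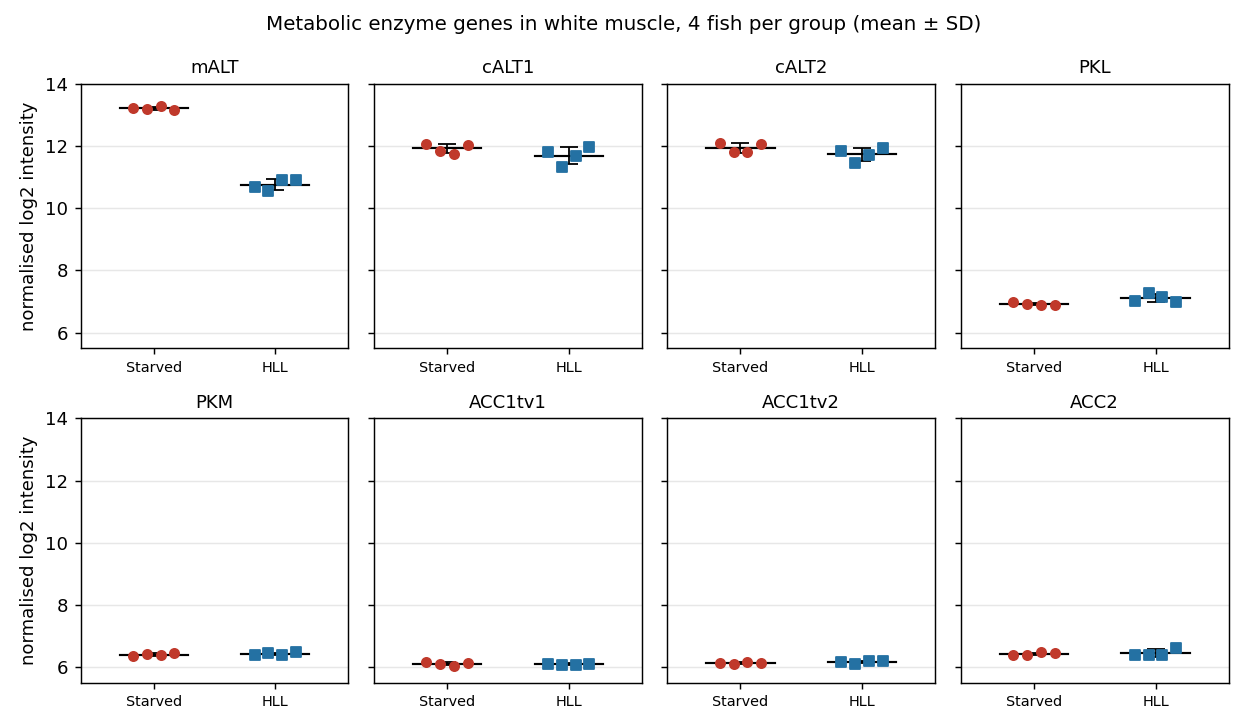
Normalised log2 intensity (vertical axis) of the 8 sequences listed by gene symbol in the white muscle of 4 starved and 4 HLL fish. Points are fish, and the bar and whiskers are mean ± SD; mALT at 13.21 in starved against 10.76 in HLL fish is the only gene with a wide gap, and PKM and the 3 ACC sequences lie near the background.

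The cytosolic enzymes behaved otherwise. cALT1 had 12.05, 11.85, 11.75 and 12.03 in starved fish, against 11.79, 11.33, 11.68 and 11.96 in HLL fish, and the groups overlapped. Its log2 change was 0.22 (standard error 0.26, adjusted P value 0.594), and that of cALT2 was 0.20 (adjusted P value 0.629). Over the 16 muscle fish cALT1 and cALT2 correlated with r = 0.994, and since they are named as forms of 1 enzyme their probes may not separate them. With LLH cALT1 averaged 12.44 ± 0.37, and LLH minus HLL was 0.75 (adjusted P value 0.318).

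PKL had 6.90 to 6.97 in starved fish, against 6.99 to 7.28 in HLL fish. The groups did not overlap, which 30.7% of all sequences share, but the difference of -0.19 did not pass the test (standard error 0.12, adjusted P value 0.247). PKM lay between 6.37 and 6.46 in starved and between 6.41 and 6.48 in HLL fish (log2 change -0.04, adjusted P value 0.415). For the carboxylases little could be measured in this tissue. ACC1tv1 was well above background in 1 of 4 starved and 0 of 4 HLL fish, and ACC1tv2 in no fish of either group. ACC2 was measured in all 8 fish at 6.43 ± 0.04 in starved and 6.46 ± 0.11 in HLL fish, with a log2 change of -0.03 (standard error 0.06, adjusted P value 0.707).

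The largest increases belonged to a run of 6 isotigs with consecutive identifiers, isotig01019 to isotig01024. In the assembler used, isotigs of 1 gene or of a group of near-identical genes are numbered together, and isotigs that share sequence cannot be separated by their probes here. Within each fish the 6 values differed by 0.15 to 0.43. isotig01019 had 15.87, 16.32, 15.78 and 15.65 in starved fish, against 7.46, 9.19, 9.56 and 9.83 in HLL fish. The log2 change was 6.78, or 110-fold (standard error 0.68, adjusted P value 6.85e-06), and the other 5 gave 6.69 to 6.71. The starved fish were close together and the HLL fish widely spread, and the fish on MHL and LLH lay between 7.03 and 11.07.

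After this run came isotig06121, isotig07217, isotig03848 and isotig05977. isotig06121 had 14.94, 15.43, 15.71 and 15.53 in starved fish, against 10.22, 10.25, 10.81 and 10.22 in HLL fish (log2 change 5.03, standard error 0.37, adjusted P value 5.31e-07). With LLH its 4 values were 11.49 to 13.44, against the 10.22 to 10.81 with HLL, and LLH minus HLL was itself 2.47 (adjusted P value 0.0254). isotig03848 also lay higher with LLH, at 8.74 to 9.75, against 7.43 to 7.93 with HLL. Its LLH minus HLL of 1.55 did not pass (adjusted P value 0.156).

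isotig07217 was 24.0-fold higher in starved fish (13.56 ± 0.33 in starved and 8.98 ± 0.65 in HLL fish) and isotig03848 was 23.0-fold higher (12.21 ± 0.68 in starved and 7.66 ± 0.21 in HLL fish). isotig05977 was 19.7-fold higher and the most even of them, with 15.81, 15.78, 15.61 and 15.59 in starved fish, against 11.30, 11.29, 11.30 and 11.77 in HLL fish. All 3 passed with an adjusted P value of at most 1.98e-06, and no starved fish overlapped a fed fish of any diet in them.

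The largest decrease was that of isotig16003. It had 9.59, 9.52, 9.08 and 8.86 in starved fish, against 15.44, 15.94, 15.42 and 16.13 in HLL fish, a log2 change of -6.53 (standard error 0.29, adjusted P value 1.94e-08). In linear terms the level was 92.5-fold lower. The fish of the other diets lay between 14.44 and 16.26, so that all 12 fed fish lay far above all 4 starved fish.

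isotig06565 had 6.48, 7.29, 6.94 and 6.71 in starved fish, against 12.34, 12.81, 12.44 and 12.71 in HLL fish, a 53.5-fold decrease (adjusted P value 4.97e-09). isotig06309 had 7.24, 7.72, 7.43 and 7.33 in starved fish, against 12.41, 12.61, 12.28 and 12.29 in HLL fish. Its 31.6-fold decrease had the smallest standard error of the leading decreases, 0.14 on the log2 scale, and an adjusted P value of 9.49e-10. With LLH both lay lower than with HLL, by a margin close to the threshold. LLH minus HLL was -1.26 for isotig06565 (adjusted P value 0.0451) and -0.81 for isotig06309 (adjusted P value 0.0471). MHL minus HLL did not pass for either (adjusted P values 0.355 and 0.539), and in the fit of log ratios 0 sequences differed between LLH and HLL.

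The decreases of isotig07233 (28.2-fold), isotig07071 (26.9-fold) and isotig03938 (17.2-fold) were of the same kind, with SDs between 0.21 and 0.70 in both groups and adjusted P values of at most 4.77e-07. In each of the 3 the fed fish of every diet lay above all starved fish.

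**Figure D2:**
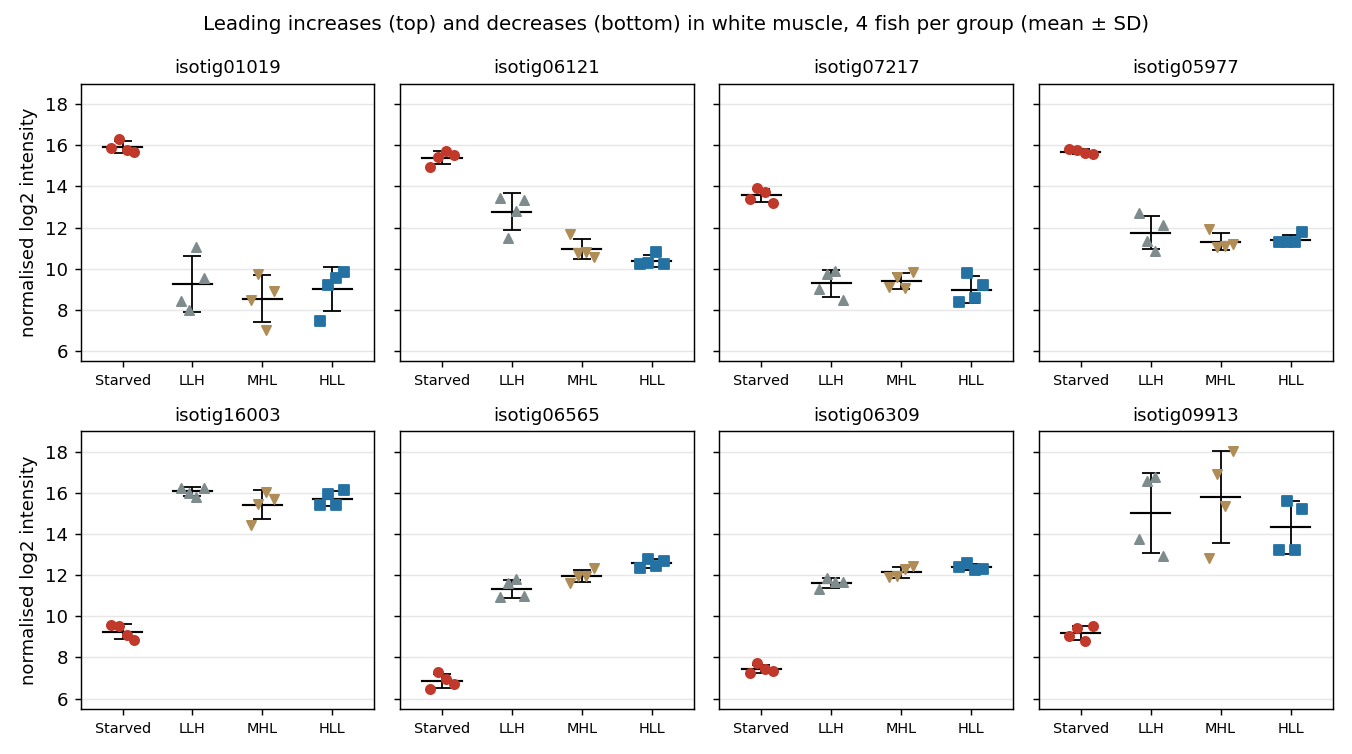
Normalised log2 intensity (vertical axis) of 4 of the leading increases (top row) and 4 of the leading decreases (bottom row) in the white muscle of starved, LLH, MHL and HLL fish. Points are fish and whiskers are mean ± SD (n = 4); isotig16003 falls to 9.26 in starved fish against 15.73 in HLL fish, and isotig09913 spreads from 12.85 to 18.06 among fed fish.

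A second kind of decrease varied widely among fed fish. isotig09913 had 9.04, 9.41, 8.82 and 9.53 in starved fish, against 13.21, 15.62, 13.24 and 15.23 in HLL fish (log2 change -5.18, standard error 1.07, adjusted P value 0.00221). HLL fish 2 and 4, both labelled with Cy5, were the high ones, and fish 1 and 3, both with Cy3, the low ones. Fish and dye cannot be told apart within this group. With MHL isotig09913 lay between 12.85 and 18.06 and with LLH between 12.95 and 16.80. The MHL fish with the higher values, 16.93 and 18.06, carried Cy3. isotig15834 and contig00793, which the same rule names, varied with isotig09913 from fish to fish. So did isotig04817 and isotig11220, which were chosen after their values were seen. In HLL fish all of these showed the same split by dye. Over the 12 fed fish the lowest correlation among the 5 sequences was r = 0.874, given as a description of sequences that share these arrays. In starved fish none of the 5 had an SD over 0.54.

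The call of contig00793 rested on the fit. Its log2 change was -4.35 (adjusted P value 0.00979), and with log ratios it was -5.04 with an adjusted P value of 0.0682. The calls of isotig04817 and isotig11220 were likewise lost in at least 1 alternative, with adjusted P values up to 0.0646 and 0.0717.

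isotig05665 also varied among fed fish, with the HLL fish split the other way from isotig09913. It had 8.04, 7.98, 8.84 and 8.05 in starved fish, against 13.43, 10.68, 13.87 and 11.65 in HLL fish (log2 change -4.17, adjusted P value 0.000412). HLL fish 1 and 3, both labelled with Cy3, were the high ones, and fish 2 and 4, both with Cy5, the low ones, so that fish and dye cannot be told apart within this group. With MHL, in contrast, the 2 fish with the higher values, 11.35 and 10.68, carried Cy5. isotig04649, chosen after its values were seen, followed isotig05665 with r = 0.976 over the 12 fed fish.

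A pair of sequences was switched on in only some HLL fish. Of all 25225 sequences, 28 were well above background in at least 3 HLL fish and in none of the 12 other muscle fish. isotig04586, chosen after its values were seen, had 6.08, 6.08, 5.81 and 5.96 in starved fish, against 11.45, 6.33, 12.41 and 11.23 in HLL fish. The starved fish were not well above background, nor was HLL fish 2, and the 8 fish on MHL and LLH lay between 6.04 and 6.15. HLL fish 1, 3 and 4 thus stood out from the other 13 muscle samples. Relative to the lowest measurable level, or to their own level where that was higher, starved fish were at least 19.4-fold lower (adjusted P value 0.00121). Its neighbour isotig04587 had 11.35, 6.36, 12.27 and 11.08 in the 4 HLL fish. It was well above background in 1 starved fish, so it is not among the 28. These calls are of a difference between 3 HLL fish and all others, not between the diets. The standard error for isotig04586, 0.86 on the log2 scale, pools the spread of all muscle groups, while the SD was 2.73 in HLL fish.

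Sequences measured in only 1 of the groups were few. In 93 sequences a spot was well above background in all 4 starved and in no HLL fish, and 75 of these were called higher. The reverse held for 49 sequences, of which 43 were called lower. Detection in 1 group goes with a difference, so these counts describe the sequences and test nothing. For a lower bound, each faint fish counted at its own level or at the lowest measurable level of its channel, whichever was higher. The bound was between 1.07 and 2.77-fold for the 75 and between 1.08 and 2.52-fold for the 43, and the changes themselves may be larger. It is not taken from the fit and can exceed the fitted fold. The largest bound among the increases, 2.77-fold, was that of the single read IFXJFUR01A58EY (adjusted P value 6.63e-07). It had 7.97, 7.55, 7.86 and 7.64 in starved fish, against 6.26, 6.32, 6.42 and 6.14 in HLL fish. These HLL levels lay above the lowest measurable level, so its bound is the plain difference of the group means. Its fitted log2 change was 1.46, a slightly smaller 2.74-fold, and 4.63 with the processed signals of Feature Extraction. Among the decreases, isotig13047, chosen like it after its values were seen, was at least 2-fold lower in starved fish (6.26 ± 0.15 in starved and 7.26 ± 0.17 in HLL fish, adjusted P value 1.54e-05). Its fitted log2 change was -1.02, and -3.91 with those signals.

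The share of sequences called depended on their level. The level was taken from the MHL and LLH fish, which are not among the 8 fish compared. They still enter the fit, through arrays shared with those fish and the pooled spread, so level and contrast are not fully independent. Of the 10235 sequences under 6.5, which is close to the background, 5.72% were higher and 3.10% lower in starved fish. Between 9 and 11 the shares were 30.2 and 32.2%. Over 15, where 451 sequences lay, 17.1% were higher and 46.1% lower, and the median log2 change was -0.33.

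**Figure D3:**
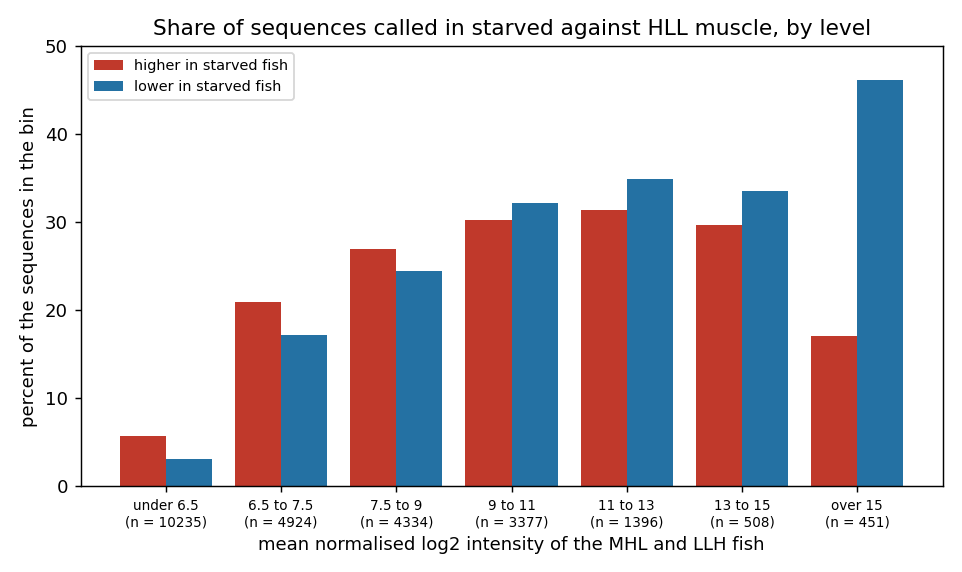
Percent of sequences called higher and lower in starved than in HLL muscle (vertical axis) in bins of mean normalised log2 intensity of the MHL and LLH fish (horizontal axis), with the number of sequences in each bin. The shares are 5.72% higher and 3.10% lower under 6.5 and 30.2% and 32.2% between 9 and 11, and over 15 they part, at 17.1% higher and 46.1% lower; with median centring in place of Loess this last split turned.

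The split at the top of the range depended on the normalisation. With median centring in place of Loess, 153 of the 451 sequences were higher and 71 lower, and with quantile normalisation of all channels 122 were higher and 119 lower. Among the 100 sequences of highest level, 0 were called higher and 96 lower, and 24 of the 100 came from the single run isotig00185 to isotig00218. In the 13 alternatives run, and with each of the 8 fish left out, 0 of the 100 were called higher. The number called lower was 24 with median centring, 23 with quantile normalisation and 35 without the dye term.

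Of the 5 sequences with the highest level in HLL fish, isotig19522, which had 1 probe, had 17.81, 15, 17.52 and 16.19 in starved fish, against 17.53, 18.65, 18.80 and 19.09 in HLL fish. The groups overlapped, and the starved fish with Cy5 (1 and 3) were above those with Cy3 (2 and 4). The log2 change was -1.94 (adjusted P value 0.00162). The other 4 were isotig00218, isotig00199, isotig00200 and isotig00189 of the same run, with log2 changes of -1.34 to -1.27 and adjusted P values of 0.0195 to 0.0374. Their calls were lost in 11 to 13 of 21 alternatives each, with adjusted P values up to 0.195. A sequence of about that level could also go the other way. The single read IFXJFUR01EFTB9, chosen after its values were seen, had 18.25, 18.10, 18.34 and 18.35 in starved fish, against 16.99, 17.53, 16.07 and 17.70 in HLL fish (log2 change 1.23, adjusted P value 0.00142).

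**Figure D4:**
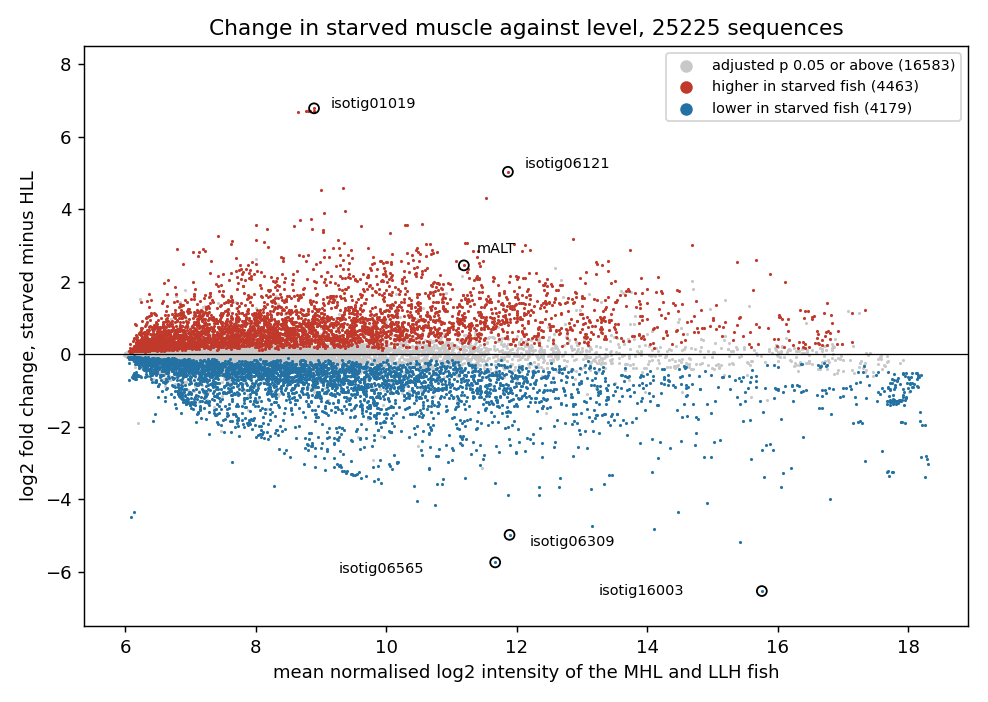
Log2 fold change of starved minus HLL muscle (vertical axis) against the mean normalised log2 intensity of the MHL and LLH fish (horizontal axis) for 25225 sequences. Red points are the 4463 sequences higher and blue points the 4179 lower in starved fish, grey points did not pass, and circles mark sequences named in the text, from isotig01019 at 6.78 to isotig16003 at -6.53.

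Most sequences were measured by 2 different probes, which makes a repeat measurement of the same RNA. Of the 24148 sequences with 2 probes, both passed in the same direction in 5803 (24.0%), 3055 higher and 2748 lower. Among the sequences called from the mean of their probes, both passed in 3055 of 4270 higher and 2748 of 3972 lower ones. The call uses these same probes and fish, so that the joint passing is largely built in. The 2 probes passed in opposite directions in 53 sequences, for which the mean over the probes does not describe either. Of the sequences called, 276 had 2 probes with changes of opposite sign, whether or not each probe passed.

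Assembled isotigs were called more often than single reads, at 36.5 and 26.4%. Of the 72 contigs, 4 were higher and 27 lower in starved fish, which is 43.1% called. The share called also moved with level, and its part in these differences was not tested.

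The fish on the other diets put the HLL comparison in context. They share the starved fish with it, so the values are set side by side and no agreement is counted. Against MHL 4163 sequences (16.5%) were higher and 3578 (14.2%) lower in starved fish, and against LLH 3682 (14.6%) and 3336 (13.2%). The 1138 sequences at least 2-fold higher than with HLL had a median log2 change of 1.43 against HLL, 1.29 against MHL and 1.21 against LLH. For the 1147 at least 2-fold lower the medians were -1.42, -1.23 and -1.09. The members were chosen by the first of these contrasts, which favours a large median for it. The part of this choice in the order of the medians was not tested. All starved fish lay above all 12 fed fish in 2448 of the 25225 sequences and below them in 2176.

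The number of sequences that set HLL apart from the other diets was smaller in this fit and depended strongly on the processing. LLH and HLL differed in 60 sequences (0.238%) and MHL and HLL in 4 (0.0159%), with 2949 and 2599 at an unadjusted P value under 0.05 (limma). With log ratios both numbers were 0, and without normalisation between arrays they were 1392 and 931. Of the 60, 33 were higher both in LLH and in starved fish than in HLL fish, 18 were lower in both, 2 were higher in LLH and lower in starved fish, and 7 did not differ between starved and HLL fish by the test. Both contrasts use the same HLL fish, so a joint direction is partly built in. Without HLL fish 1 the number of 60 became 8, without HLL fish 3 it was 25, and without LLH fish 1 and 4 it was 22 and 12.

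For some sequences, chosen after their values were seen, the size of the starvation change differed with the diet it was set against. isotig10060 had 10.18 to 10.55 in starved fish and 7.62 to 8.42 in HLL fish, a log2 change of 2.11 (adjusted P value 4.32e-05), while against LLH it was 0.35 (adjusted P value 0.405). LLH minus HLL was 1.76 (adjusted P value 0.0254). isotig09217 was 3.54 higher against HLL and 1.66 against LLH.

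isotig06546 went the other way. It averaged 6.67 ± 0.29 in starved and 7.86 ± 0.48 in HLL fish, but 10.90 ± 0.36 in LLH and 10.12 ± 0.45 in MHL fish. Its log2 change was -1.20 against HLL, -3.43 against MHL and -4.20 against LLH. LLH minus HLL was 3 (adjusted P value 0.00236) and MHL minus HLL 2.23 (adjusted P value 0.0108). The call against HLL was lost with log ratios (adjusted P value 0.0593).

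isotig14771, chosen likewise, had 6.28, 6.29, 6.89 and 6.16 in starved fish, against 8.52, 7.58, 8.54 and 7.79 in HLL fish (log2 change -1.66, adjusted P value 0.000873). The LLH fish had 6.22 to 6.42 and the MHL fish 6.17 to 7.72. isotig06928 and isotig02331 were among the 4 sequences that differed between MHL and HLL, as was isotig06546. isotig06928 was 0.32 higher in starved than in HLL fish, and MHL minus HLL was -0.79. The calls of isotig06928 and isotig02331 in starved against HLL fish were lost in 3 and 2 alternatives, with adjusted P values up to 0.105 and 0.495.

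The same comparison was made in the liver. In 1 limma fit over the 32 samples of both tissues, the starved minus HLL difference differed between muscle and liver in 8317 of 25225 sequences (33.0%). Each tissue lay on arrays of its own, with all 4 groups on them, so tissue and set of arrays cannot be told apart. The paper describes liver and muscle RNA of 4 fish per condition, so both tissues may come from the same fish. The fit had no term for the fish and treated muscle and liver samples as independent. In that fit 2362 sequences changed at least 2-fold in muscle. In the liver 13.1% of all sequences were higher and 11.9% lower in starved fish. Of the 1177 sequences at least 2-fold higher in muscle, 168 rose and 200 fell in the liver. Of the 1185 at least 2-fold lower in muscle, 125 rose and 285 fell in the liver. The difference between the tissues passed the test in 1924 of the 2362, which were chosen by their change in muscle, so that this count is favoured by the choice.

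mALT belonged to the sequences that differed. In the liver it had 13.66, 14.10, 13.96 and 13.72 in starved fish and 13.49, 14.01, 13.50 and 13.25 in HLL fish, a log2 change of 0.29 that did not pass (adjusted P value 0.131). The difference between muscle and liver was 2.20 (standard error 0.19, adjusted P value 1.65e-09). In starved muscle the level, 13.45 ± 0.05 in this fit, thus came near that of the liver, against 10.96 ± 0.21 in HLL muscle. cALT1 and cALT2 fell in the liver, by 1.83 and 1.86 on the log2 scale, and differed from muscle by 2.06 and 2.07 (adjusted P value 5.65e-05 and 6.14e-05). ACC1tv1 and ACC1tv2 had log2 changes of -0.53 and -1.16 in the liver. They differed from muscle by 0.54 and 1.12 (limma, adjusted P value 2.87e-06 and 3.07e-07). Both were well above background in 4 HLL and 0 starved livers, and in muscle in at most 1 fish of a group. These sizes thus rest on levels near background. The differences of PKL, PKM and ACC2 did not pass.

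Several leading muscle sequences were at or near the background in the liver. isotig01019 to isotig01024, isotig09913 and contig00793 were not well above background in any starved or HLL liver, and isotig16003 was in 1 of 4 in each group. isotig07071 changed in opposite directions. It had 12.54, 12.82, 13.72 and 13.65 in the liver of starved fish, against 9.75, 8.24, 9.23 and 6.92 in that of HLL fish. It was thus higher in starved liver by 4.60 (adjusted P value 2.30e-09) and lower in starved muscle, with a difference between the tissues of -9.40 (standard error 0.56, adjusted P value 3.34e-12). isotig06565 and isotig05665 fell in both tissues, and for isotig05665 the difference between the tissues, -0.99, did not pass (standard error 0.79, adjusted P value 0.393).

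**Figure D5:**
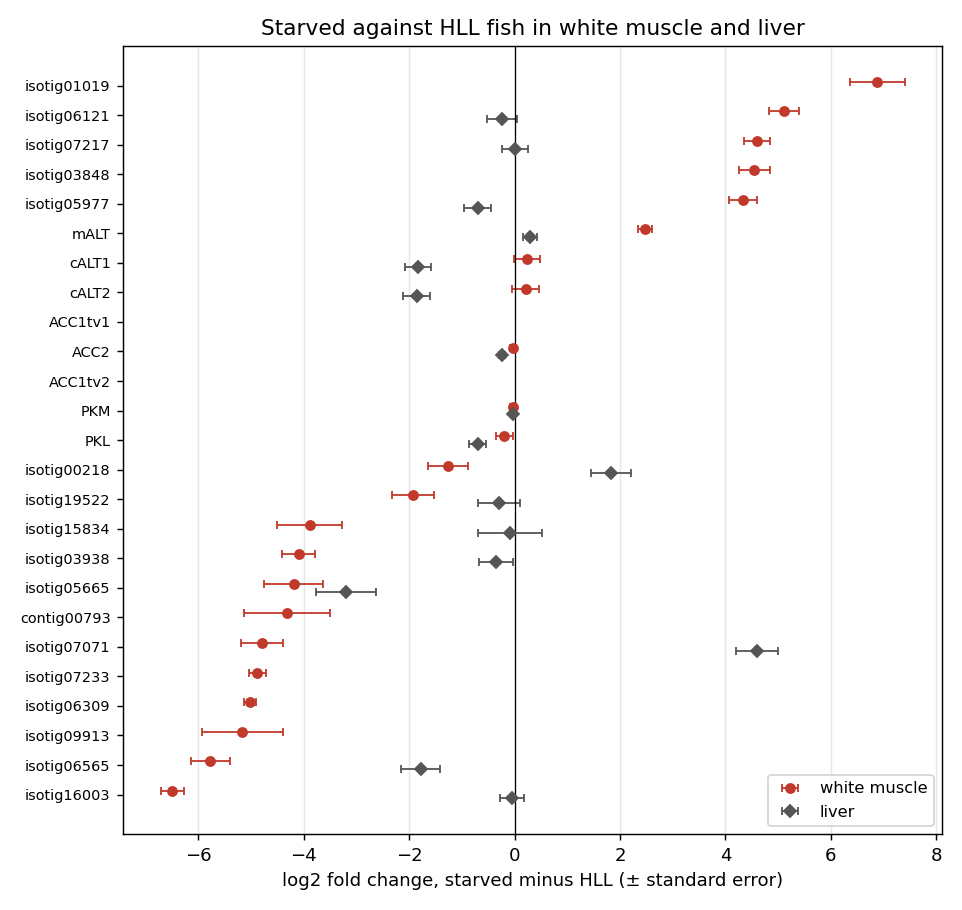
Log2 fold change of starved minus HLL fish (horizontal axis, ± standard error) in white muscle (red circles) and liver (grey diamonds). Shown are the enzyme genes and the sequences named by the rule, with 1 member of each run of isotigs numbered together. No point is drawn where a group had no fish well above background. isotig16003 sits near 0 in the liver, isotig01019 has no point there, ACC1tv1 and ACC1tv2 have none in either tissue, and isotig07071 is -4.80 in the muscle and 4.60 in the liver.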

How the data were processed

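White muscle RNA of 4 starved and 4 HLL fish was measured on 6 two-colour arrays of 60-mer probes, each fish once, and 8 muscle and 8 liver arrays entered the fits described. The authors deposited scanner intensity values of each spot, made per the submitters' processing notes with Agilent Feature Extraction 10.7. They also deposited a table of log2 ratios per array, whose probe order is the reverse of the scanner order and which was used as an alternative only.

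Control spots and spots marked as outliers were left out. Intensity was background corrected (normexp, offset 50), normalised within arrays (Loess) and between arrays (Aquantile), and averaged over spots, probes and sequences (49373 probes, 25225 sequences). Separate channels of the 16 muscle samples were fitted with group and dye as terms and array as a random block (correlation 0.159 over 5000 sequences drawn at random), with Benjamini-Hochberg adjustment at 0.05 (R 4.3.3, limma 3.58.1, statmod 1.5.0, data.table package 1.17.8). The number of arrays limits the precision. In simulated data with the same layout, 182 of 200 sequences changed 1 log2 unit and 194 of 200 changed 2 log2 units were recovered among 25225. False calls numbered 11 and 6. The simulated noise was normal and not normalised, and far fewer sequences changed than were called in the data, so these rates do not carry over. For a sequence not well above background in any fish of a group, a bound on the fold is printed beside its measured levels. Each fish of that group counts at its own level or at the lowest level well above background in its channel, whichever is higher. For some of these sequences the fitted change is given too.

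The members and lists were chosen with earlier results of these data known. Named are the 8 sequences with a symbol, the 10 largest increases and decreases whose groups were apart and whose 2 probes both passed, and the 5 of highest level in HLL fish. Lists of pathway genes and cell type markers could not be used, since the files do not pair assembly identifiers with genes, and no sequence is printed for the same reason. Alternatives were log ratios, no dye term, 6 arrays only, other background correction and normalisation, a filter on dim probes, the brightest probe, the deposited log2 ratios, a replicate block, and each fish left out.

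The labels of a liver array name HLL in the title and LLH in the source name, and it was taken as HLL. It gives the first value of each list of HLL livers above. Without that array the difference between the tissues was called in 7739 sequences, against 8317 with it.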

Additional observations from a re-analysis of the deposited data

Results flagged for a closer look

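Some single fish lay far from the other 3 of their group in a sequence named above, by Dixon's criterion for 4 samples. This was so in 7 of 94 groups of 4, where chance gives about 1 in 20 for independent groups. These groups include isotigs of a single run and sequences chosen by their values, so that rate is no yardstick here. Starved fish 3 had 8.84 for isotig05665, against 7.98 to 8.05 in the other starved fish. Starved fish 2 had 6.48 for isotig13047, against 6.16 to 6.21. HLL fish 1 had 12.28 for isotig07071, against 13.67 to 13.70 in the other HLL fish, and 7.62 for isotig10060, against 8.35 to 8.42. HLL fish 3 had 10.81 for isotig06121, against 10.22 to 10.25. HLL fish 4 had 11.77 for isotig05977, against 11.29 to 11.30, and 6.63 for ACC2, against 6.39 to 6.41.

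The change between starved and HLL fish differed between muscle and liver in 8317 sequences by the test of the difference itself (limma). Among the enzyme genes the difference, muscle minus liver on the log2 scale, was 2.20 for mALT (adjusted P value 1.65e-09), 2.06 for cALT1 (5.65e-05) and 2.07 for cALT2 (6.14e-05). It was 0.54 for ACC1tv1 (2.87e-06) and 1.12 for ACC1tv2 (3.07e-07), which lay near background in muscle and in starved liver. For PKL, PKM and ACC2 it did not pass.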

How the results depend on the processing

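Some counts over all sequences changed by more than 1.5 times under some settings. With log ratios 2914 sequences were higher and 2782 lower, 52 of the 100 sequences of highest level were lower, and 0 sequences differed between MHL and HLL or between LLH and HLL. With the processed signals of Feature Extraction 2-fold changes were found in 2119 higher and 2022 lower sequences, and 46 of the 100 were lower. With median centring in place of Loess 5271 were higher and 3321 lower, each a change of less than 1.5 times. Of the calls 61.3% were then higher, against 51.6%. At that setting 1812 were at least 2-fold higher and 749 lower, with 24 of the 100 lower. With quantile normalisation 23 of the 100 were lower, and without the dye term 35. Without normalisation between arrays 931 sequences differed between MHL and HLL and 1392 between LLH and HLL. With the deposited log2 ratios 2886 were higher, and 54 of the 100 lower. The cause of these shifts was not tested.

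Fish of the same number correlated in their deviations with r = 0.257, 0.0965, 0.221 and 0.168 for numbers 1 to 4, against at most 0.141 between different numbers, and 7 of 8 fish correlated best with their own number. The 2 fish numbered 3 shared an array, and so did those numbered 4, so for them pairing and array cannot be told apart. For numbers 1 and 2, which lay on separate arrays, the correlations are at most a hint of pairing from the data. The labels give none, and number 2 fell short of the level required of every pair, so the fit without a block was kept. With a replicate block 4181 sequences were higher and 4127 lower, 51 differed between MHL and HLL and 434 between LLH and HLL. The calls of isotig00218, isotig00199, isotig00200 and isotig00189 were lost (adjusted P values 0.0501 to 0.0842).

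Leaving out 1 fish gave 3924 to 4404 higher and 3482 to 3955 lower, 1078 to 1191 at least 2-fold higher and 1039 to 1155 lower, and 72 to 96 of the 100 lower. MHL and HLL then differed in 2 to 21 sequences, with 21 without HLL fish 2, 13 without MHL fish 2, 7 without HLL fish 4 and 2 without HLL fish 3. LLH and HLL differed in 8 to 61. The difference between the tissues was called in 7804 to 8227. With all fish but median centring in place of Loess it was called in 6659. Of 984 values of 47 named sequences, 923 kept the outcome of the main fit, called or not called. These include all values of the 7 enzyme sequences that did not pass, which had no call to keep. In 10 sequences 61 values lost the call, and 0 calls changed direction. The size of faint sequences moved with the background correction. With the processed signals the log2 change was -7.81 for isotig04586 (-4.50 with normexp), -4.07 for isotig14771 (-1.66), -2.46 for isotig06546 (-1.20) and 4.63 for IFXJFUR01A58EY (1.46).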
